A study of Mus musculus with 6 samples.

Results

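The genes described are 36 genes of the unfolded protein response (UPR) and of protein folding in the endoplasmic reticulum (ER), taken by gene symbol from a list. All 36 were found among the 17890 genes of the deposited table. Their transcripts were measured by RNA sequencing of mast cells from mouse lymph nodes. Of the libraries, 3 came from nodes that held tumour metastases (mLN) and 3 from uninvolved nodes (uLN). The sources used here give neither the mouse strain nor the age, the kind of tumour or how the mast cells were isolated. Nor do the labels say whether replicates came from separate animals, so the spread behind each p-value is that between libraries and could be technical alone.

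The ER is where secreted and membrane proteins are threaded through the membrane, folded, joined by disulfide bonds and checked. Proteins that fail are moved back to the cytosol and destroyed, a process called ER-associated degradation (ERAD). When unfolded proteins build up, the sensors ATF6, IRE1 (gene Ern1) and PERK (gene Eif2ak3) start the UPR, which raises chaperones and ERAD factors and slows translation. Mast cells store proteases in granules and carry the IgE receptor, and these proteins all pass through the ER.

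Libraries held 17643916 to 17799420 counts. The 36 genes took 0.557% to 0.587% of all counts in mLN libraries and 0.407% to 0.412% in uLN libraries. The labelled cell type had its markers in abundance: 8 mast cell marker genes summed to between 32420 and 35080 TMM-normalised counts per 1000000 (CPM) in mLN and between 34420 and 36130 CPM in uLN. Of these 8 genes 3 were higher and 5 lower in mLN, so near-equal sums hide opposite changes. The 3 rose by 2.01-fold (Cma1) to 4.03-fold (Mcpt4), and the 5 fell by 1.15-fold (Ms4a2) to 2.47-fold (Kit). Other cell types left traces. A list of 8 keratinocyte and epithelial markers summed to 157.6, 16.2 and 35.1 CPM in mLN replicates 1, 2 and 3, against 17.1, 17.3 and 8.04 CPM in uLN replicates 1, 2 and 3. A list of 6 fibroblast markers summed to 111.5 CPM in mLN replicate 1 and to at most 25.8 CPM in any other library. Of 6 macrophage markers, 2 were higher and 3 lower in mLN, and their sum was 153.2 to 172.3 CPM in mLN and 64.5 to 81.9 CPM in uLN. The part of these cells in the results was not tested, and fewer cells of a type cannot be told apart from less RNA per cell. Plasma cells, known for their large ER, were scarcely detected, as Mzb1 had 3 counts in mLN replicate 1 and 0 in every other library. Of the 7 plasma cell markers found in the table, Sdc1 was higher in mLN and the other 6 were too low to test. Their sum was 2.28 to 7.61 CPM in mLN and 1.90 to 2.88 CPM in uLN.

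A known mark of UPR genes is a promoter box, the ER stress response element, to which ATF6 and XBP1 bind with the factor NF-Y. The sequences below show that box before genes whose transcripts moved in opposite directions in mLN. They are given on the strand of the gene, 5′ to 3′, from RefSeq promoters of build GRCm38.p6, and all end before the start site. Capitals mark the fixed letters of the element. In the standard form, ERSE, these are CCAAT and CCACG with any 9 bases between them. Herpud1 holds the shorter form, ERSE-II, which is ATTGG and CCACG with any 1 base between them. Where the capitals read CGTGG first, the box lies on the opposite strand.
Hspa5: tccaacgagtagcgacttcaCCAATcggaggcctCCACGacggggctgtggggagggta
Hsp90b1: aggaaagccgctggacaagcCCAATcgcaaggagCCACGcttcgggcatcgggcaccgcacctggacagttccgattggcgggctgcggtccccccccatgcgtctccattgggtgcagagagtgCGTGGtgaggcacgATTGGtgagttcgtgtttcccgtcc
Calr: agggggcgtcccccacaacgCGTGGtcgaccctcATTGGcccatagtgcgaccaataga
Pdia6: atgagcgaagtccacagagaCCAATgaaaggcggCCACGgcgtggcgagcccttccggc
Dnajc3: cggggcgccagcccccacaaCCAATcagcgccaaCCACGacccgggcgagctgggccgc
Creld2: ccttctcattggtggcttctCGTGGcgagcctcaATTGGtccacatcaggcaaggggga
Syvn1: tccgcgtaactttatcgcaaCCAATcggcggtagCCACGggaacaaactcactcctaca
Herpud1: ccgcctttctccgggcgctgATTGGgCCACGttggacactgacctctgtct

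The Hspa5 window is chr2:34772005-34772063, on the plus strand. The Hsp90b1 window is chr10:86705513-86705676, on the minus strand. The Calr window is chr8:84847055-84847113, on the minus strand. The Pdia6 window is chr12:17266471-17266529, on the plus strand. The Dnajc3 window is chr14:118937807-118937865, on the plus strand. The Creld2 window is chr15:88819500-88819558, on the plus strand. The Syvn1 window is chr19:6046512-6046570, on the plus strand. The Herpud1 window is chr8:94386357-94386407, on the plus strand. The first 4 genes had higher transcript levels in mLN, Dnajc3 was not called, and Creld2, Syvn1 and Herpud1 had lower levels. Promoters from 250 bases before to 50 bases after the start site were found for 30 of the 36 genes. ERSE was searched on both strands and occurred in 10 of these 30, which is 33.3%, and in 37 of 27025 genes with a promoter in the table, or 0.137%. ERSE-II occurred in 2 of the 30, Herpud1 and Dnajb11, and in 0.0444% of all genes with a promoter. None of the 30 promoters held both forms. The box was first described in promoters of such chaperone genes, so its presence here is background. Of the 10 genes with ERSE, 6 were higher in mLN (Hspa5, Hsp90b1, Calr, Canx, Pdia6 and Ero1lb), 2 were lower (Creld2 and Syvn1), Dnajc3 was not called and Derl3 was too low to test. Both genes with ERSE-II were lower. Over all tested genes with a promoter, these members included, 9 held ERSE-II, and 3 were higher, 5 lower and 1 not called. ERSE was in 15, of which 9 were higher, 4 lower and 2 not called. The letters TGACGTGG, a UPR element known to bind XBP1 and ATF6, were in 0 of the 30 windows and in 0.714% of all genes with a promoter. A match is a description of letters and does not show that a factor was bound.

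**Figure D1:**
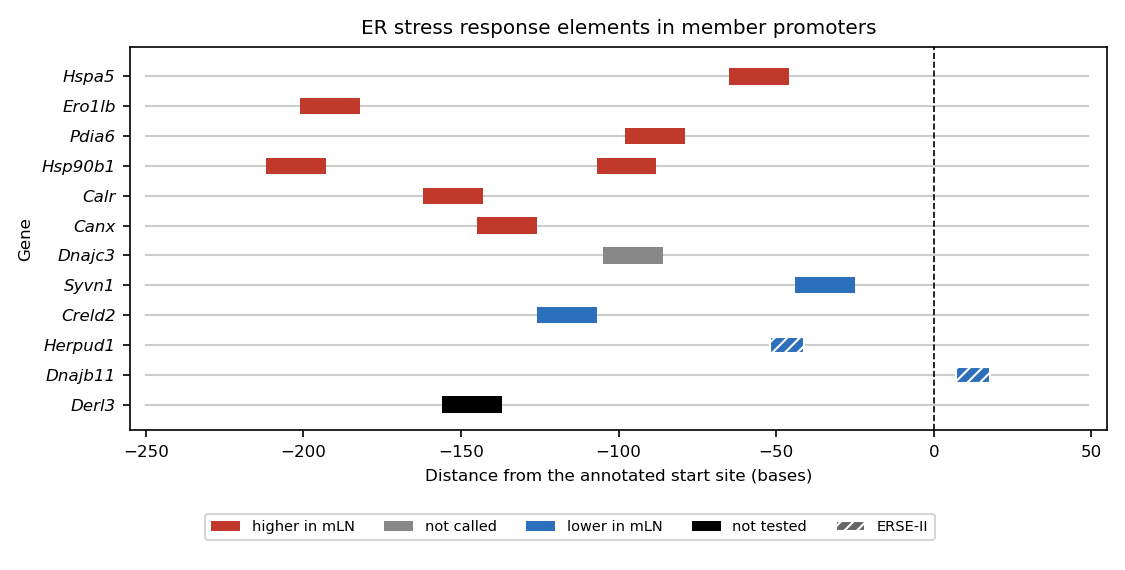
Positions of the ER stress response elements in the promoters of the 12 genes that hold one, with the distance in bases from the annotated start site on the x axis, genes from the highest to the lowest change from top to bottom, and the untested Derl3 last. Red boxes belong to genes higher in mLN, blue to genes lower in mLN, grey to a gene not called and black to a gene not tested, and hatched boxes are ERSE-II, with the Dnajb11 box lying 7 to 17 bases past the start.

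The comparison asks how ER folding and stress genes differ between mast cells of metastatic and of uninvolved nodes. Of the 36 genes, 35 passed the filter on low counts. In mLN 22 of them were higher, 7 were lower and 6 were not called, at an adjusted p under 0.05 in edgeR's quasi-likelihood test. Among all 12706 genes tested, 67.4% were called, 33.2% as higher and 34.2% as lower. The called share of the 35 genes was 82.9%. Their median log2 fold change, mLN over uLN, was 0.35, and that of all tested genes was -0.01. With a change of at least 1.5-fold also asked, 11 were higher and 3 lower, against 17.1% and 15.3% of all tested genes. The 3 mLN and 3 uLN libraries did not overlap for 30 of the 35, against 72.9% of all tested genes. Derl3, a factor that pulls proteins out of the ER and is abundant in plasma cells, had 1, 3 and 3 counts in mLN and 2, 2 and 5 counts in uLN and was not tested. Values of Dnajb11, Ero1lb, Edem2, Syvn1, Derl2, Sec63 and Ssr1 are less certain, because most or all of their estimated counts were not whole numbers. Transcripts annotated on the opposite strand cover up to 17.3% of the exons of Eif2ak3, Hsp90b1, Sec62 and Sec61a1, and without a known strand setting their reads cannot be told apart.

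**Figure D2:**
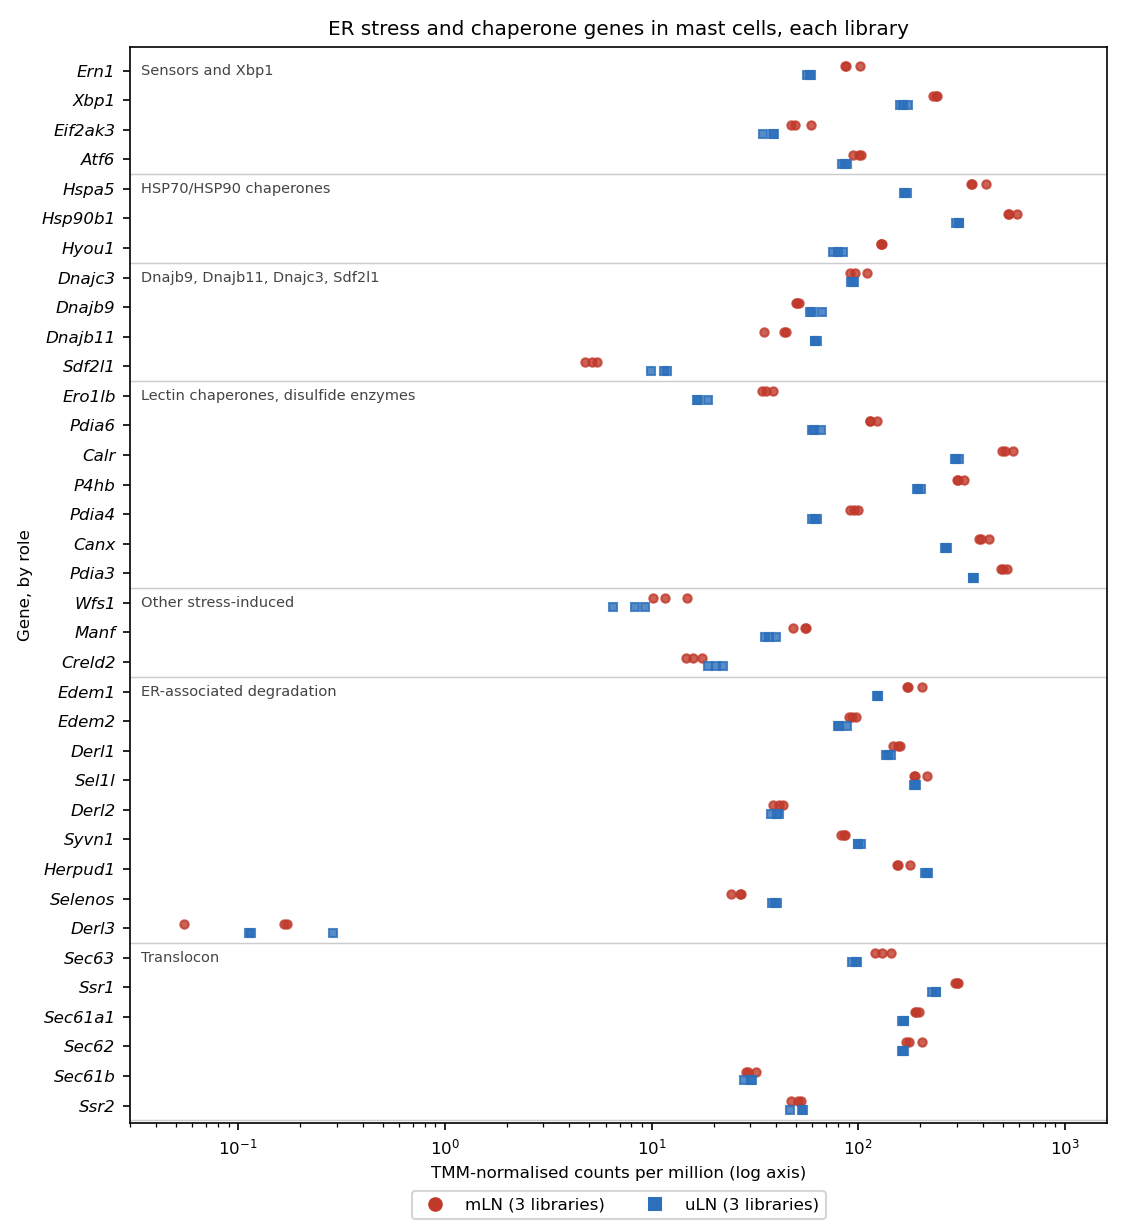
Level of each of the 36 genes in every library, in TMM-normalised CPM on a log axis, grouped by role, with red circles for the 3 mLN libraries and blue squares for the 3 uLN libraries. The circles lie to the right of the squares for all genes in the groups of HSP70 and HSP90 chaperones and of lectin chaperones and disulfide enzymes. They lie to the left for Dnajb9, Dnajb11, Sdf2l1, Creld2, Syvn1, Herpud1 and Selenos.

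Hspa5, Hsp90b1 and Hyou1, chaperones of the ER lumen, were each higher in mLN. Among all 12706 tested genes 67.4% were called, 33.2% as higher. Hspa5 encodes BiP, the HSP70 chaperone that holds unfolded chains and keeps the sensors inactive. It lies on chromosome 2 from 34772090 to 34776529. Its level was 350.0, 356 and 416 CPM in mLN replicates 1, 2 and 3, against 166, 168 and 172 CPM in uLN replicates 1, 2 and 3. All mLN libraries stood well above all uLN libraries, and mLN replicate 3 was the highest. The log2 fold change was 1.15 ± 0.06 (SE), or 2.22-fold, with an edgeR adjusted p = 1.70e-07. Hsp90b1 encodes GRP94, the HSP90 of the ER, which folds integrins and Toll-like receptors. It had 537, 531 and 590.0 CPM in mLN and 307, 299 and 306 CPM in uLN. That is 1.82-fold higher in mLN (edgeR adjusted p = 1.85e-07), and the groups did not overlap. Hyou1, a large HSP70 relative that swaps the nucleotide on BiP, had 129.6, 128.5 and 129.9 CPM in mLN and 79.5, 75.7 and 84.6 CPM in uLN. It rose 1.62-fold (edgeR adjusted p = 9.64e-07), and its mLN libraries were almost equal.

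Dnajb9, Dnajb11 and Sdf2l1 fell and Dnajc3 was not called, a group of co-chaperones of BiP in the ER lumen with a partner protein. The called share of the group was 75%, near the 67.4% of all 12706 tested genes, of which 33.2% were higher and 34.2% lower. The group does not hold every partner of BiP, as Sec63, described with the translocon, rose 1.37-fold. Sdf2l1 encodes a small partner of the co-chaperone DNAJB11 that keeps clients from clumping, and lies on chromosome 16 from 17130138 to 17132383. It had 5.48, 5.17 and 4.77 CPM in mLN, against 9.98, 11.9 and 11.5 CPM in uLN. Every mLN library was near 5 CPM and every uLN library at about 10 CPM or more. The log2 fold change was -1.11 ± 0.12 (SE, edgeR adjusted p = 1.62e-05), the deepest fall of the 35 tested genes, and it rests on 83 to 100 counts per mLN library. Dnajb11 encodes ERdj3, which delivers unfolded chains to BiP. It had 43.5, 44.8 and 34.96 CPM in mLN and 61.8, 62.0 and 63.1 CPM in uLN, and fell 1.51-fold (edgeR adjusted p = 9.84e-05). The mLN replicate 3, which was highest for Hspa5, was lowest for Dnajb11. Dnajb9 encodes ERdj4, known to hold IRE1 inactive together with BiP. It fell by 0.29 on the log2 scale, to 50.7 ± 0.680 CPM in mLN against 61.8 ± 4.31 CPM in uLN (SD, n = 3, edgeR adjusted p = 0.00152). Dnajc3 encodes p58IPK, a co-chaperone also known to inhibit PERK. It had 91.7, 96.9 and 110.6 CPM in mLN and 95.2, 92.3 and 94.7 CPM in uLN. Its groups overlapped, and it was not called (log2 fold change 0.08 ± 0.07, SE). The value was 0.008 without mLN replicate 3 and 0.142 without mLN replicate 1, and it was not called in either case. Summed over these 4 genes, the level was 191.0 to 200.7 CPM in mLN and 225.6 to 236.0 CPM in uLN. The sum over Hspa5, Hsp90b1 and Hyou1 was 1015 to 1136 CPM in mLN and 542.4 to 562.7 CPM in uLN.

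The lectin chaperones and disulfide enzymes rose in 7 of 7 cases, by 1.41-fold to 2.08-fold. Among all 12706 tested genes 67.4% were called, 33.2% as higher. Calr and Canx encode calreticulin and calnexin, which bind the sugars of new glycoproteins. Calr had 499, 511 and 559.9 CPM in mLN and 306.5, 296 and 294 CPM in uLN, a rise of 1.75-fold (edgeR adjusted p = 3.56e-07). Canx had 384, 391.7 and 430.2 CPM in mLN and 267.5, 262 and 269 CPM in uLN, a rise of 1.51-fold. Neither gene showed overlap between the groups. Pdia3, which encodes their disulfide partner ERp57, had 494, 502 and 526 CPM in mLN and 358, 358 and 365 CPM in uLN, and rose 1.41-fold, the smallest rise of the 7. Pdia6 encodes a disulfide isomerase known to act on IRE1 and PERK. It had 114, 114 and 124 CPM in mLN and 60.1, 61.1 and 65.8 CPM in uLN, and rose 1.89-fold (edgeR adjusted p = 2.72e-07). Pdia4, which encodes ERp72, had 95.2, 91.7 and 99.8 CPM in mLN and 63.5, 61.6 and 59.7 CPM in uLN, a rise of 1.55-fold. P4hb encodes the classical disulfide isomerase, which is also a subunit of the collagen prolyl hydroxylase. It had 304.5, 301 and 325 CPM in mLN and 194, 193 and 201 CPM in uLN, a rise of 1.58-fold. Ero1lb encodes an oxidase that recharges these isomerases. It had 34.1, 35.7 and 38.8 CPM in mLN and 16.6, 16.8 and 18.7 CPM in uLN, a log2 fold change of 1.06 ± 0.08 (SE, edgeR adjusted p = 9.93e-07). It was the least abundant of the 7 and rose the most.

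**Figure D3:**
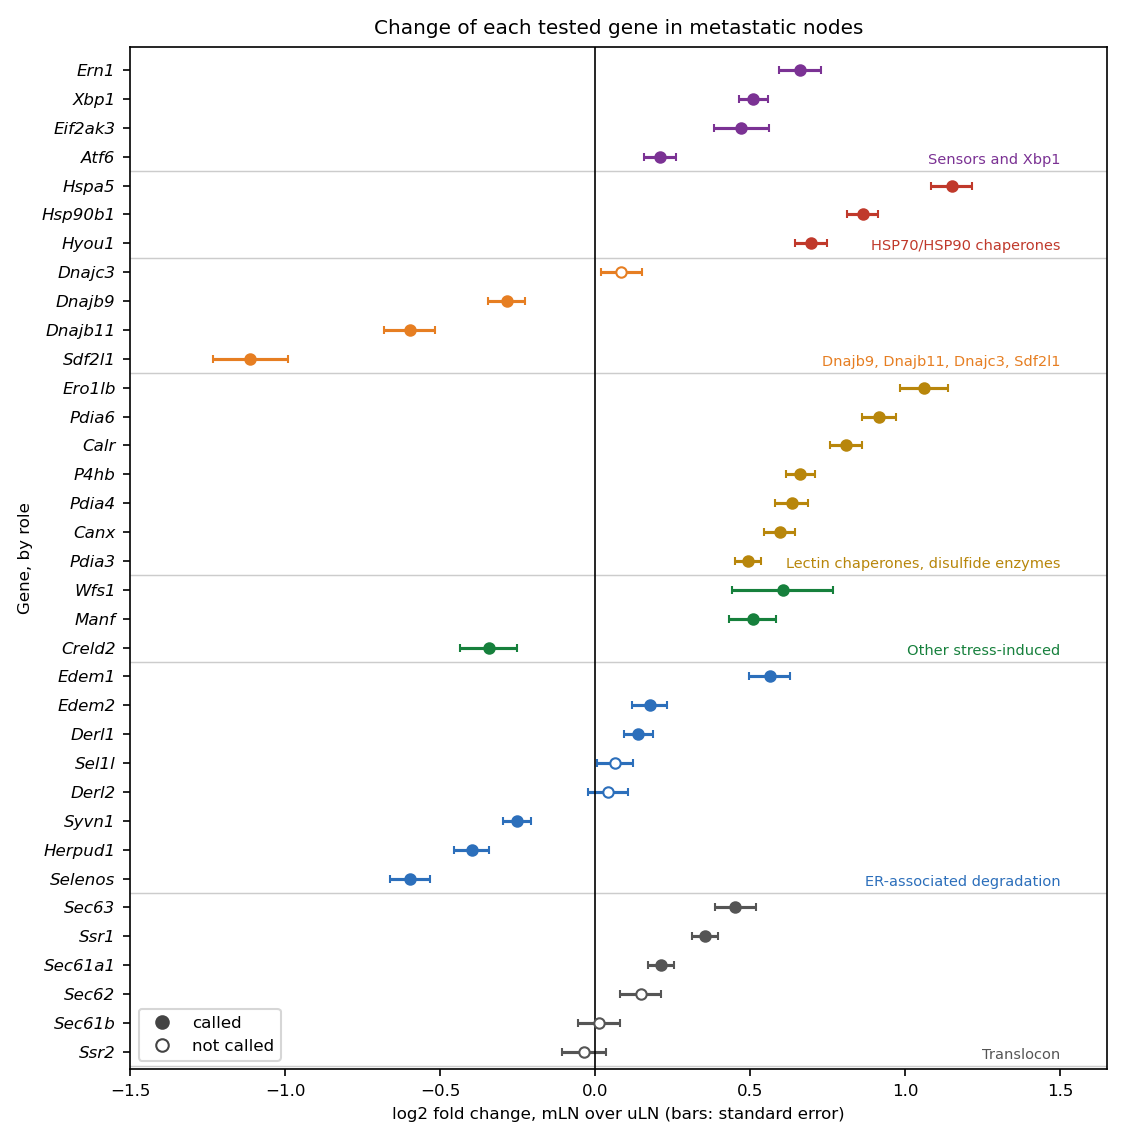
Log2 fold change of each of the 35 tested genes, mLN over uLN, on the x axis, with bars for the standard error and genes grouped by role on the y axis. Filled points passed an adjusted p under 0.05 and open points did not. The groups of HSP70 and HSP90 chaperones and of lectin chaperones and disulfide enzymes lie wholly right of 0, Hspa5 farthest at 1.15. The group of Dnajb9, Dnajb11, Dnajc3 and Sdf2l1 runs from 0.08 for Dnajc3 down to -1.11 for Sdf2l1.

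All 3 sensors and Xbp1 rose, by 1.16-fold to 1.58-fold, where 67.4% of all 12706 tested genes were called, 33.2% as higher. Only Ern1 among them rose by at least 1.5-fold, as did 17.1% of all tested genes. Ern1 encodes IRE1 alpha, the sensor that cuts Xbp1 mRNA. It had 85.9, 87.6 and 102 CPM in mLN and 58.6, 56.7 and 59.2 CPM in uLN, and rose 1.58-fold (edgeR adjusted p = 1.21e-05). Eif2ak3, which encodes the kinase PERK, had 47.1, 49.5 and 59.0 CPM in mLN and 39.2, 34.5 and 38.5 CPM in uLN. It rose 1.39-fold (edgeR adjusted p = 7.85e-04). For both, mLN replicate 3 was the highest library. Atf6, whose product is cut in the Golgi to release a transcription factor, rose 1.16-fold to 99.3 ± 4.59 CPM in mLN, against 86.0 ± 2.64 CPM in uLN (SD, n = 3, edgeR adjusted p = 0.00447). Xbp1 encodes the transcription factor made after IRE1 splices its mRNA, and lies on chromosome 11 from 5520641 to 5525993. It had 240.3, 231 and 239 CPM in mLN and 165, 159.8 and 174 CPM in uLN, a log2 fold change of 0.51 ± 0.05 (SE, edgeR adjusted p = 4.88e-06). These are counts per gene, so spliced and unspliced Xbp1 mRNA are not separated.

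Genes of ERAD moved both ways, with 3 higher, 3 lower and 2 not called among the 8 tested. The called share was 75%, near the 67.4% of all 12706 tested genes, of which 33.2% were higher and 34.2% lower. Edem1 encodes a lectin that picks misfolded glycoproteins for disposal. It had 172.8, 173 and 205 CPM in mLN and 125, 123 and 125 CPM in uLN, and rose 1.48-fold (edgeR adjusted p = 2.84e-05). Its relative Edem2, which starts the trimming of mannose, rose 1.13-fold (edgeR adjusted p = 0.0175). That call was lost without mLN replicate 1, the library richest in keratinocyte transcripts (adjusted p = 0.069), and without uLN replicates 2 (0.0735) and 3 (0.0852). Derl1, which encodes a channel-like factor of the ER membrane, rose 1.10-fold (edgeR adjusted p = 0.0245). It missed the threshold without mLN replicate 2 (0.0549), without uLN replicates 1 (0.113) and 2 (0.0718), and with no expression filter (0.0861). Herpud1 encodes a membrane protein that gathers the ERAD complex, and lies on chromosome 8 from 94386429 to 94395371. It had 154.6, 156 and 177 CPM in mLN, against 211, 214 and 219 CPM in uLN, and fell by 0.40 on the log2 scale (edgeR adjusted p = 1.18e-04). Selenos, a selenoprotein that recruits the extraction machinery, had 27.0, 26.9 and 24.3 CPM in mLN and 40.5, 38.3 and 39.5 CPM in uLN, and fell 1.51-fold (edgeR adjusted p = 1.73e-05). In both genes all mLN libraries lay below all uLN libraries. Syvn1, which encodes the ubiquitin ligase HRD1, fell 1.19-fold to 84.6 ± 1.86 CPM in mLN, against 100.8 ± 1.90 CPM in uLN (SD, n = 3, edgeR adjusted p = 5.46e-04). Sel1l, its adaptor, had 189, 185.5 and 214.9 CPM in mLN and 189.9, 185 and 189 CPM in uLN and was not called, nor was Derl2 at 41.1 ± 2.28 CPM in mLN and 40.0 ± 1.76 CPM in uLN (SD, n = 3).

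Of 3 other genes known to be induced by ER stress, 2 rose and 1 fell, where 67.4% of all tested genes were called. Manf encodes a secreted factor that protects cells under ER stress. It had 55.5, 56.0 and 48.2 CPM in mLN and 35.3, 36.9 and 40.2 CPM in uLN, and rose 1.42-fold (edgeR adjusted p = 1.49e-04). Creld2, which encodes a small ER resident protein with disulfide activity, had 15.9, 17.6 and 14.6 CPM in mLN and 20.4, 18.7 and 22.1 CPM in uLN. It fell by 0.34 on the log2 scale (edgeR adjusted p = 0.00743). Wfs1, whose product wolframin sits in the ER membrane and restrains ATF6, had 14.8, 11.6 and 10.2 CPM in mLN and 6.48, 9.26 and 8.33 CPM in uLN. It rose 1.52-fold (edgeR adjusted p = 0.00743). Its libraries spread the most within each group, with 19.3% of the mean in mLN and 17.6% in uLN, where the median over the 35 genes was 5.92% in mLN and 2.81% in uLN.

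In the translocon, the channel for new proteins, 3 of 6 genes rose and 3 were not called. The called share was 50%, against 67.4% of all tested genes. Sec63, which couples BiP to the channel, had 130, 121 and 145 CPM in mLN and 97.5, 93.2 and 98.6 CPM in uLN, and rose 1.37-fold (edgeR adjusted p = 1.33e-04). Ssr1, a subunit of the channel-bound TRAP complex, had 295, 301 and 303 CPM in mLN and 239, 227 and 237 CPM in uLN, and rose 1.28-fold (edgeR adjusted p = 2.96e-05). Sec61a1, which encodes the pore, rose 1.16-fold to 191 ± 4.53 CPM in mLN, against 165 ± 2.12 CPM in uLN (SD, n = 3, edgeR adjusted p = 0.00109). Other parts of the same complexes were not called. Sec61b, the small beta subunit, was at 29.9 ± 1.71 CPM in mLN and 29.7 ± 1.36 CPM in uLN, and Ssr2 at 50.2 ± 2.82 CPM in mLN and 51.5 ± 4.15 CPM in uLN (SD, n = 3). Sec62 had 170.0, 175 and 204 CPM in mLN and 164, 167.5 and 165 CPM in uLN (edgeR adjusted p = 0.0694). Its groups did not overlap, and it passed the threshold with upper quartile scaling (adjusted p = 0.0346), with library totals alone (0.0211), in DESeq2 (0.0441) and without mLN replicate 1 (0.0235). Its log2 fold change was 0.15 ± 0.06 (SE), and 0.066 without mLN replicate 3.

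Levels between genes were compared per kilobase of exon (RPKM), with all annotated exons of a gene joined. Calr was the most abundant of the 36 in both groups, at 239.6 ± 14.8 RPKM in mLN and 137 ± 3.13 RPKM in uLN (SD, n = 3). In mLN it was followed by Hsp90b1 at 196 ± 11.6 RPKM and Pdia3 at 183 ± 6.11 RPKM. In uLN it was followed by Pdia3 at 130.1 ± 1.47 RPKM, Herpud1 at 110.0 ± 2.05 RPKM and Hsp90b1 at 108 ± 1.60 RPKM, of which the last pair differed by about their spread. Herpud1 thus ranked 8 of 36 in mLN and 3 of 36 in uLN, and Hspa5 ranked 5 in mLN and 10 in uLN.

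Lists of other genes of the pathway were chosen with earlier results of these data known. Genes in them moved both ways, as did all 12706 tested genes, of which 33.2% were higher and 34.2% lower. Of the PERK and ATF4 branch, 0 of 8 tested genes rose and 4 fell, a called share of 50% against 67.4% of all tested genes. Atf4, the transcription factor translated when PERK is active, had 183, 184 and 163 CPM in mLN and 333, 342 and 367 CPM in uLN, and fell 1.96-fold (edgeR adjusted p = 2.64e-07). Its target Ddit3, which encodes CHOP, had 68.4, 68.8 and 66.0 CPM in mLN and 113.6, 111.9 and 112 CPM in uLN, and fell 1.66-fold. The PERK gene itself was higher in mLN and these transcripts of its branch were lower, but transcript levels do not measure the activity of PERK. Ppp1r15b, a phosphatase subunit that reverses PERK's mark, fell 1.35-fold and the stress factor Atf3 fell 1.73-fold. The other 4 (Ppp1r15a, Trib3, Sesn2 and Eif2s1) were not called. Estimated counts of Ddit3 and Ppp1r15b were not whole in any of the 6 libraries, so their values are less certain.

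Among genes that process UPR signals, 3 of 9 rose and 4 fell. Creb3l2, an ATF6-like factor known from mouse cartilage to raise ER export genes, had 147, 149 and 160.9 CPM in mLN and 77.9, 78.5 and 78.2 CPM in uLN, and rose 1.95-fold (edgeR adjusted p = 9.30e-08). Its relative Creb3l1 fell 1.56-fold, Atf6b fell 1.46-fold and Mbtps1, the protease that makes the first cut in ATF6, fell 1.37-fold. In the list of other folding factors 8 of 18 rose and 6 fell. Txndc5, a disulfide isomerase, had 93.6, 100.4 and 100.8 CPM in mLN and 34.9, 35.2 and 34.8 CPM in uLN, and rose 2.81-fold (edgeR adjusted p = 8.95e-09). Sil1, a nucleotide exchange factor for BiP, rose 1.76-fold and the calcium-binding Calu 1.49-fold, while Cnpy3, a helper of Toll-like receptor folding, fell by 0.58 on the log2 scale.

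Other ERAD factors mostly fell, 12 of 15, while 2 rose. Vcp encodes p97, the motor that pulls proteins out of the ER membrane. It had 299.8, 308.5 and 298 CPM in mLN and 433, 444 and 446 CPM in uLN, and fell 1.46-fold (edgeR adjusted p = 9.76e-07). Ngly1, which strips sugars from such proteins, fell 1.79-fold, the lectin Erlec1 1.44-fold and the ubiquitin ligase Rnf5 1.43-fold. In translocation and glycosylation 11 of 26 rose and 7 fell. Rpn1 and Stt3b, subunits of the enzyme that adds sugars, rose 1.38-fold and 1.44-fold, and the TRAP subunit Ssr3 rose 1.48-fold, while the signal peptidase subunit Spcs1 fell 1.54-fold. In ER export and retrieval 11 of 19 rose and 3 fell. Lman1, a cargo receptor for glycoproteins, had 155, 167.5 and 208 CPM in mLN and 65.01, 63.9 and 66.1 CPM in uLN, and rose 2.72-fold (edgeR adjusted p = 4.74e-07). The coat subunits Sec23a and Sec24d rose 2.13-fold and 1.70-fold, and the cargo receptor Tmed10 1.40-fold. The 3 that fell were Sec23b, Sec13 and Lman2, by 1.39-fold, 1.21-fold and 1.31-fold. Over all 6 lists 35 of 95 tested genes rose and 36 fell, and the median log2 fold change was 0.05. The called share was 74.7%, near the 67.4% of all 12706 tested genes, of which 33.2% were higher and 34.2% lower.

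**Figure D4:**
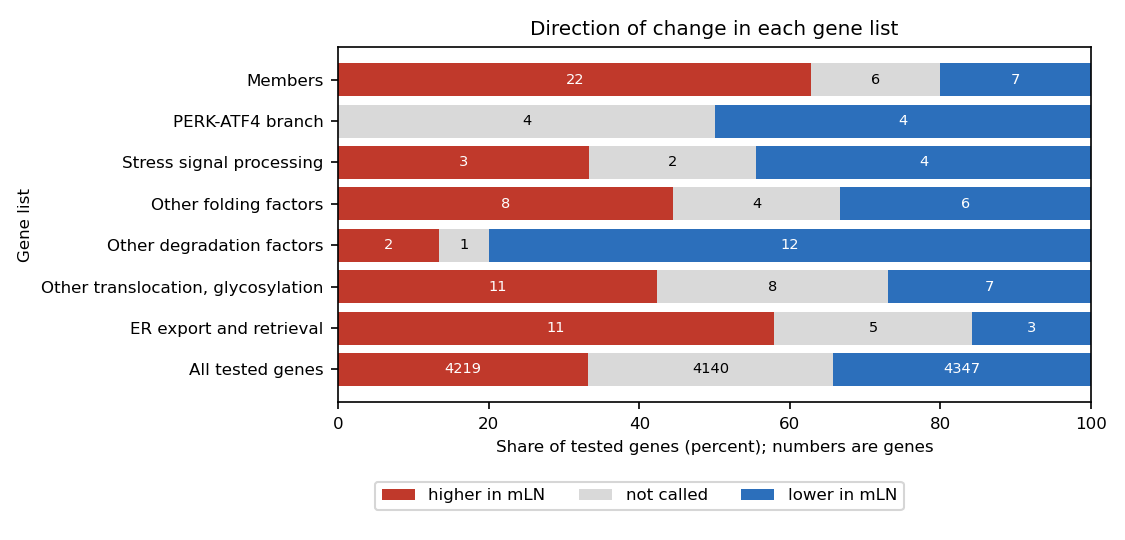
Share of tested genes that were higher in mLN (red), not called (grey) or lower in mLN (blue) among the genes described (Members, top), in 6 lists of other genes of the pathway and among all 12706 tested genes (bottom), with the numbers of genes printed in the bars. The red share is 22 of 35 at the top and 0 of 8 for the PERK and ATF4 branch, and the blue share is 12 of 15 for the other degradation factors.

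The median joined exon length was 1952 bases for the 7 that fell and 3464 bases for the 22 that rose. Over all tested genes the medians were 3069 and 3590 bases. Across the 35 genes, Spearman's rho between exon length and log2 fold change was 0.32, and across the 12463 tested genes with a length it was 0.10. This is a description across genes, which share the 6 libraries. With each library's trend on exon length removed, a setting chosen after seeing the data, all 29 calls remained and their directions were the same. The log2 fold change was then -1.004 for Sdf2l1 and 1.16 for Hspa5. The median over the 35 genes was 0.26, against 0.35 in the main fit, and that over all tested genes was 0.01, against -0.01. Called values that moved by over 1.5 times were the log2 fold changes of Atf6, 0.12 (edgeR adjusted p = 0.049), and Edem2, 0.26.

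**Figure D5:**
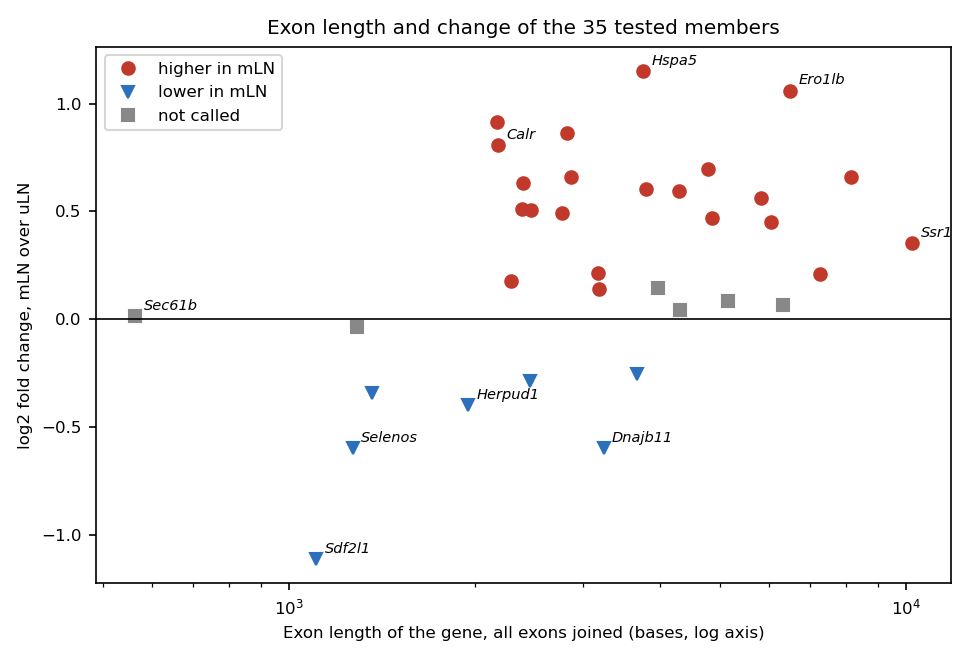
Joined exon length of each of the 35 tested genes in bases (log axis) against its log2 fold change, mLN over uLN, with red circles for genes higher in mLN, blue triangles for genes lower in mLN and grey squares for genes not called. The shortest gene that fell is Sdf2l1 at 1108 bases, whereas Sec61b, shorter still at 564 bases, lies at 0.01, and Calr at 2184 bases lies at 0.81.

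Replicate 3 was often the highest of the mLN libraries. Of the 35 genes, 24 had their highest mLN level in mLN replicate 3 and 7 had their lowest there. Without mLN replicate 3 all 29 calls remained. Without mLN replicate 1 the call of Edem2 was lost, that of Sec62 was gained and the other 28 remained.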

How the data were processed

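Libraries were made from total RNA extracted with a Qiagen kit and a BGI mRNA kit for DNBSEQ, per the labels' protocols. The submitters' processing notes name TopHat, cutadapt and FastQC with build GRCm38, without versions. Neither the counting tool nor its strand setting is given in the sources used here. The values that the authors deposited are estimated counts per gene, with no scaling stated. Of each library's values 32.2% to 32.8% were not whole, and all were rounded for the tests. Estimated counts of Dnajb11, Ero1lb, Edem2, Syvn1, Derl2, Sec63 and Ssr1 were not whole in 5 or all 6 libraries, so reads may be shared with other genes. The same held in all 6 libraries for Ddit3, Ppp1r15b, Atf6b, Erlec1 and Spcs1 of the other lists. Exons of 12 members overlap another annotated gene, by at most 17.3% of their length. One row with no gene was left out, leaving 17890 genes, and 26 symbols turned into dates were restored by gene ID.

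The fit across all genes used edgeR 4.0.16 in R 4.3.3 (quasi-likelihood test, TMM, default filter, 12706 genes kept, Benjamini-Hochberg adjustment, called under 0.05). The SE is the log2 fold change over the square root of F. The fit was first tested on simulated data. Counts of 3 per library correspond to 0.164 to 0.172 CPM. Precision is limited by counting error for low genes and by 3 libraries per group for the rest. Replicates were compared by chi-square per gene, whose mean was at least 2.06 for each pair where counting error gives 1, so each library was kept. That mean was 3.77 between mLN replicates 1 and 2. With mLN replicate 3 it was 11.07 for mLN replicate 1 and 11.4 for mLN replicate 2. Exon lengths came from GENCODE M21 and positions from RefSeq, both GRCm38. The 36 genes, the other lists and the markers were chosen with earlier results of these data known. All 36 are named, and up to 4 per other list in the order of adjusted p. Export and retrieval genes that fell were named outside this rule. Alternatives were other scalings, DESeq2 1.42.0, other filters, each library left out, the replicate number as a block, a fixed coefficient of variation of 0.2 and removal of the length trend.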

Additional observations from a re-analysis of the deposited data

How the results depend on the processing

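The 22 higher and 7 lower genes were 20 to 22 higher and 7 lower with each library left out in turn, 22 and 7 with DESeq2's size factors, with at least 1 CPM in 3 libraries and with the length trend removed, 23 and 7 in DESeq2 and with library totals or upper quartile scaling, and 21 and 7 with no expression filter. With a coefficient of variation of 0.2 set for every gene, where edgeR estimated 6.49%, they were 10 higher and 3 lower, and over all genes 2145 higher and 1913 lower against 4219 and 4347. That setting calls fewer genes by construction. The 10 higher genes were Ern1, Hspa5, Hsp90b1, Hyou1, Calr, Canx, Pdia4, Pdia6, P4hb and Ero1lb. The 3 lower genes were Dnajb11, Sdf2l1 and Selenos. Atf6, Eif2ak3 and Xbp1 were not called there. The median log2 fold change of all genes lay between -0.026 and 0.021 over the settings. Over all genes, leaving out 1 library gave 3843 to 4403 higher and 4017 to 4492 lower. Log2 changes that changed sign were all of genes not called. Leaving out 1 library gave -0.001 to 0.081 for Derl2, -0.039 to 0.045 for Sec61b, -0.001 to 0.10 for Sel1l and -0.106 to 0.012 for Ssr2. Sec61b was -0.016 with no expression filter, and with the length trend removed Sel1l was -0.011 and Ssr2 0.079. The cause was not tested. Nothing in the labels says that equal replicate numbers pair libraries, and the correlation of deviations between same-numbered libraries was 0.025, -0.155 and -0.013. With the replicate number as a block 22 genes were higher and 7 lower, and 4122 and 4263 over all genes, and no call among the 35 changed.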

Other observations

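Ero1l, picked after its values were seen, encodes the paralogue of the oxidase of Ero1lb and is known as a gene raised by low oxygen. It stood at 366 ± 54.1 RPKM in mLN and 286 ± 6.23 RPKM in uLN (SD, n = 3), against 5.57 ± 0.371 RPKM in mLN and 2.67 ± 0.177 RPKM in uLN for Ero1lb. Its log2 fold change, mLN over uLN, was 0.36 ± 0.09 (SE, edgeR adjusted p = 0.00385). The mLN libraries held 1585, 1395 and 1870.0 CPM of Ero1l and the uLN libraries 1273, 1233 and 1285 CPM, so the mLN libraries spread far more than the uLN libraries.

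The KDEL receptors, which return escaped chaperones to the ER, were among the export and retrieval genes and were likewise picked after their values were seen. Kdelr2 rose 1.64-fold and Kdelr1 1.15-fold (edgeR adjusted p = 9.76e-06 and 0.00371). Kdelr3, too low to test, had 18, 9 and 13 counts in mLN and 0, 0 and 2 counts in uLN.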
